A study of Mus musculus with 18 samples.

Results

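The clustered replication-dependent histone genes are the genes that make the bulk of chromatin protein while a cell copies its DNA. They were followed on 18 expression arrays of mouse macrophages cultured with plasma from 4 kinds of mice. Members were taken by name, as the rows of the expression table whose platform symbol begins with Hist1h, Hist2h, Hist3h or Hist4h, or which carry the newer name of such a gene. This gave 49 of the 24705 rows with 1 gene symbol, out of 70 genes that RefSeq places in the mouse histone clusters. All 6 genes of the linker histone H1 had a row, as did 13 of 20 H2A genes, 14 of 19 H2B genes, 7 of 12 H3 genes and 9 of 13 H4 genes. By location, 42 rows belonged to the large Hist1 cluster on chromosome 13, 5 to Hist2, 1 to Hist3 and 1 to Hist4, and 47 were protein coding while 2 were pseudogenes.

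The cells were bone marrow-derived macrophages, which grow out of marrow under the growth factor M-CSF, here at 30 ng/ml. On day 4 the serum in the medium was exchanged for 10% plasma of C57BL/6J mice that had eaten a Western Diet for 8 weeks, and total RNA was taken after 48 hours, on day 6. WT plasma came from wild-type mice (4 arrays), ApoE plasma from ApoE-KO mice, which lack the lipid carrier apolipoprotein E (5 arrays), AS1 plasma from ApoE-Stab1-KO mice (3 arrays) and AS2 plasma from ApoE-Stab2-KO mice (6 arrays). Stab1 and Stab2 encode the scavenger receptors stabilin-1 and stabilin-2. The knockouts are named for the plasma donors and not for the macrophages, which were treated alike in all other respects that the labels give, so no gene of these arrays checks a label. Nothing in the labels tells whether a group's arrays stand for independent cultures or plasma donors; the p-values therefore cover the spread from array to array, and that spread may be technical.

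Histones H2A, H2B, H3 and H4 form the spool around which DNA is wound, and H1 binds where DNA enters and leaves the spool. Most of their genes sit in clusters, have no introns, and are transcribed at a high rate only in S phase, when new DNA needs new nucleosomes. Their transcripts usually end in a stem-loop that is bound by SLBP instead of a poly(A) tail, and they are degraded when replication stops. A few members depart from this: some also give polyadenylated transcripts in cells that have stopped dividing, and some are made mainly in the testis.

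Expression is given as log2 values, in which 1 unit is a doubling of the signal, made by the authors with RMA, a procedure that gives every array the same distribution of values. The median value over the table was 4.37 and the lowest 3.34, so values near the latter are at the floor of the measurement. Of the 49 members, 23 had means at or below the 40th percentile of all rows, a log2 value of 4.10, among them 6 of the 7 H3 genes. These were 2 members of H1, 5 of H2A, 5 of H2B, 6 of H3 and 5 of H4, and changes in them would be compressed or missed. Histone genes of one class have coding sequences that are nearly copies of each other, and the probe sequences were not used here, so signal from one copy cannot be fully told apart from that of another. In bulk RNA, fewer cells of a type and less RNA per cell cannot be told apart. The macrophage markers Adgre1, Csf1r, Cd68, Mertk, Fcgr1, Itgam, Cd14 and Aif1 had a log2 summed level between 14.36 and 14.77 over the 18 arrays. By group it was 14.69 to 14.71 in WT, 14.36 to 14.50 in ApoE, 14.60 to 14.77 in AS1 and 14.48 to 14.55 in AS2. Neutrophil and granulocyte precursor markers stood apart in AS1, where their log2 summed level was 13.80 to 14.06, against 12.02 to 13.15 in ApoE, 12.03 to 12.33 in WT and 11.13 to 11.91 in AS2.

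Changes were tested in limma with Benjamini-Hochberg adjustment over the 24705 rows, and a gene is called higher or lower where the adjusted p was under 0.05. All 6 pairs of groups were compared in 1 model, so comparisons with a group in common share its arrays and are not independent of each other. Values after ± are SE for changes and SD for group means.

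The first comparison, ApoE against WT, concerned the effect on the genes of plasma from donors without apolipoprotein E. Of the 49 members, 8 were higher with ApoE plasma (16.3%, against 8.54% of all rows) and 1 was lower (2.04%, against 8.36%), while 40 did not pass. The 8 were core histone genes of 2 classes, 4 of H2A (H2ac10, H2ac11, H2ac21 and H2ac22) and 4 of H2B (H2bc3, H2bc7, H2bc12 and H2bc13). Of the 16 members of H3 and H4, 0 passed in limma, and at an unadjusted p under 0.05 0 were higher and 1 was lower. Among them 6 of H3 and 5 of H4 had means at or below the 40th percentile of rows. The count therefore does not show a difference between classes. The members of these classes with the smallest p were H3c11, which changed by 0.03 ± 0.03, and H4c1, by -0.13 ± 0.06, both near the floor. The median change over all 49 members was 0.02, against -0.00 over all rows. Of 8 measured macrophage markers 6 were lower and 1 was higher in ApoE than in WT, and 2 of 10 neutrophil and granulocyte precursor markers were higher; their part in the histone values was not tested.

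H2ac10 (Hist1h2af, row 319173_at), a gene of core histone H2A, read 8.71, 9.02, 8.77 and 8.96 on the 4 WT arrays and 9.88, 10.08, 9.88, 9.62 and 10.09 on the 5 ApoE arrays. Every ApoE array lay above every WT array, and the change was 1.04 ± 0.12, a 2.06-fold difference (limma adjusted p = 5.78e-06). H2ac22 (Hist1h2an, row 319170_at), another H2A gene, read 9.67, 9.79, 9.84 and 9.97 with WT plasma and 10.54, 10.70, 10.69, 10.53 and 11.02 with ApoE plasma. These groups did not overlap either, with a change of 0.88 ± 0.10 (limma adjusted p = 3.78e-06).

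H2bc13 (Hist1h2bl, row 319185_at), a gene of core histone H2B, read 10.50, 10.68, 10.68 and 10.58 with WT plasma and 11.24, 11.19, 11.26, 10.96 and 11.52 with ApoE plasma. Its smallest ApoE value, in replicate 4, was still above the largest WT value, and the change was 0.63 ± 0.09 (limma adjusted p = 7.19e-05). H2ac21 (Hist2h2ab, row 621893_at), an H2A gene of the smaller Hist2 cluster, read 6.33, 5.92, 6.13 and 6.34 with WT plasma and 6.97, 6.68, 7.10, 6.77 and 7.36 with ApoE plasma. It changed by 0.79 ± 0.12 without overlap (limma adjusted p = 0.000116).

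H2ac11 (Hist1h2ag, row 319167_at) read 4.23, 4.40, 4.00 and 4.50 with WT plasma, close to the median of the table, and 5.07, 5.02, 5.33, 5.30 and 5.74 with ApoE plasma. H2bc12 (Hist1h2bk, row 319184_at) read 4.68, 3.97, 4.76 and 4.17, and 5.33, 5.28, 5.61, 5.27 and 5.69. Neither gene's groups overlapped, and the changes were 1.01 ± 0.15 and 1.04 ± 0.15 (limma adjusted p = 9.37e-05 and 8.48e-05). Among the other 2 called H2B genes, H2bc3 changed by 0.59 ± 0.15 without overlap. H2bc7 changed by 0.98 ± 0.22, but its ApoE replicate 2, at 8.19, lay below WT replicate 4, at 8.34 (limma adjusted p = 0.00374).

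**Figure D1:**
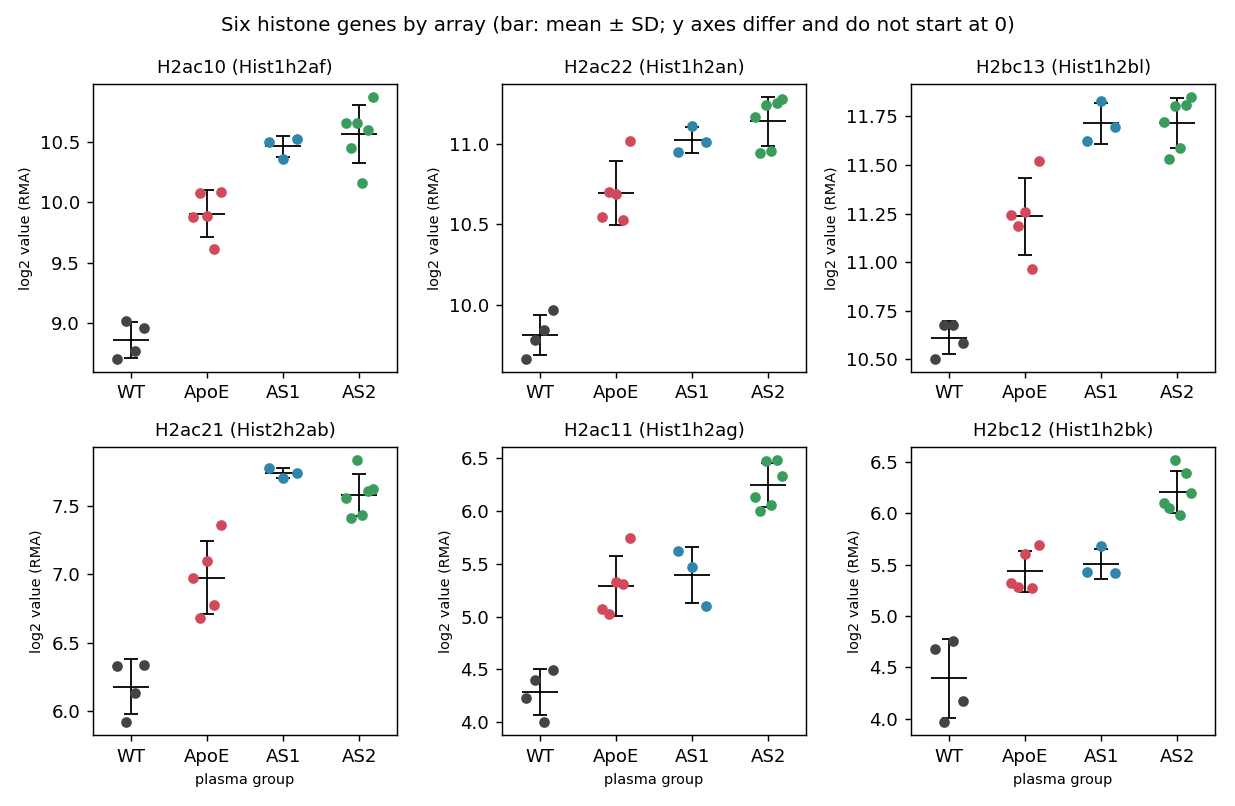
Log2 values (RMA) of 6 histone genes on every array, by plasma group; points are arrays and bars are the group mean with SD, and the vertical axes differ and do not start at 0. The 4 WT arrays are the lowest in all 6 panels; AS1 and AS2 arrays lie in the same range for H2ac10, H2ac22, H2bc13 and H2ac21, whereas for H2ac11 and H2bc12 the AS1 arrays lie in the range of the ApoE arrays and all AS2 arrays lie above both.

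The only member that was lower with ApoE plasma was H1f2 (Hist1h1c), a linker histone gene known to give polyadenylated transcripts outside S phase. It read 8.44, 8.35, 9.32 and 8.61 with WT plasma and 7.98, 7.21, 8.26, 7.81 and 8.38 with ApoE plasma. ApoE replicate 5 lay just above the lowest WT array, so the groups touched, and WT replicate 3 stood above the rest. H1f2 fell by 0.75 ± 0.21 (limma adjusted p = 0.0197), but by 0.54 without WT replicate 3, which no longer passed (limma adjusted p = 0.0873).

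The comparison of AS1 with ApoE plasma asks what the loss of stabilin-1 in the donor added. With AS1 plasma 7 members were higher (14.3%, against 7.74% of all rows) and 1 was lower (2.04%, against 8.80%), with a median change over the 49 members of 0.04 against 0.00 over all rows. The higher members were H2ac10, H2ac21, H2ac22, H2bc3, H2bc13 and 2 genes with polyadenylated transcripts, H1f2 and H2bc4. H3c11, the H3 member with the smallest p, changed by -0.03 ± 0.03 near the floor and did not pass. When arrays were instead centred on 9 housekeeping genes, which moved the median of all rows by 0.41, 42 of the 49 members were higher and 0 lower. Of all 24705 rows, 20469 were then higher and 440 lower, so the counts are relative to the median of all rows. All 10 neutrophil and granulocyte precursor markers and 4 of 6 mast cell and basophil markers were also higher in AS1 than in ApoE; their part in the histone values was not tested.

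H2ac21 read 7.78, 7.70 and 7.73 on the 3 AS1 arrays, all above the highest ApoE array, and changed by 0.76 ± 0.13 (limma adjusted p = 0.000487). H2bc13 read 11.62, 11.83 and 11.70, again above every ApoE array, with a change of 0.48 ± 0.10 (limma adjusted p = 0.00215). H2ac10 read 10.50, 10.36 and 10.53, a change of 0.56 ± 0.13 without overlap (limma adjusted p = 0.00597). H2bc3 read 6.13, 5.82, 6.10, 6.09 and 6.37 with ApoE plasma and 6.84, 6.55 and 6.86 with AS1 plasma, a change of 0.65 ± 0.16 (limma adjusted p = 0.00813).

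H2ac22 passed narrowly, with 10.95, 11.11 and 11.01 on the AS1 arrays and ApoE replicate 5 above the middle of them. Its change of 0.33 ± 0.11 (limma adjusted p = 0.0428) was lost without any single 1 of AS1 replicates 1, 2 and 3 or ApoE replicates 1, 2, 3 and 4 (limma adjusted p from 0.0621 to 0.16). H2ac11 and H2bc12 did not pass: H2ac11 read 5.62, 5.46 and 5.10 and H2bc12 5.43, 5.68 and 5.42 with AS1 plasma, within the range of the ApoE arrays. Their changes were 0.10 (95% interval -0.25 to 0.45) and 0.07 (-0.28 to 0.43).

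Among the genes with polyadenylated transcripts, H1f2 read 8.89, 8.99 and 8.69 with AS1 plasma, above all 5 ApoE arrays, and changed by 0.93 ± 0.23 (limma adjusted p = 0.00885). H2bc4 (Hist1h2bc) read 10.08, 10.20 and 10.12 with AS1 plasma and 9.86, 9.91, 9.88, 9.71 and 9.82 with ApoE plasma. The shift was small but the groups were apart, at 0.30 ± 0.07 (limma adjusted p = 0.00417). H2bc21 (Hist2h2be), the third of these genes with a row, changed by -0.08 ± 0.14 and did not pass in any of the 6 comparisons in limma.

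The 1 lower member was H4c9 (Hist1h4i), a gene of core histone H4, which read 7.30, 7.49, 6.53, 6.43 and 6.45 with ApoE plasma and 6.16, 5.81 and 5.69 with AS1 plasma. ApoE replicates 1 and 2 stood above the other 3. H4c9 fell by 0.95 ± 0.28 (limma adjusted p = 0.0273). Leaving out ApoE replicate 1, ApoE replicate 2, AS1 replicate 2 or AS1 replicate 3 ended the call (limma adjusted p = 0.067, 0.0599, 0.086 and 0.114).

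The comparison of AS2 with ApoE plasma asks the same of stabilin-2. With AS2 plasma 18 members were higher (36.7%, against 7.59% of all rows) and 1 was lower (2.04%, against 8.02%), with a median change of 0.10 over the 49 members against -0.00 over all rows. The higher members included all 5 classes: 3 of H1, 6 of H2A, 6 of H2B, 1 of H3 and 2 of H4. Centring on the housekeeping genes left 16 higher and 1 lower, where 1240 and 1532 of the 24705 rows were higher and lower. In the same comparison 5 of 10 neutrophil and granulocyte precursor markers were lower, and 3 macrophage markers were higher and 2 lower, whose part was likewise not tested.

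The member with the smallest p was H1f5 (Hist1h1b, row 56702_at), a linker histone gene expressed in dividing cells. It read 4.58, 4.32, 4.98 and 4.84 with WT plasma, 4.46, 4.22, 5.76, 5.29 and 5.60 with ApoE plasma and 5.27, 5.57 and 5.44 with AS1 plasma. On the 6 AS2 arrays its lowest, median and highest values were 6.37, 6.86 and 7.06. Every AS2 array lay above every other array, while ApoE replicates 1 and 2 lay among or below the WT values. The change against ApoE was 1.75 ± 0.24, a 3.36-fold difference (limma adjusted p = 3.12e-05), whereas the changes of ApoE against WT, 0.39 ± 0.26, and of AS1 against ApoE, 0.36 ± 0.28, did not pass.

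The 6 genes with the smallest p over all 4 groups were also higher. H2ac10 had a lowest, median and highest value of 10.16, 10.63 and 10.87 on the AS2 arrays, all above the ApoE arrays, and changed by 0.66 ± 0.11 (limma adjusted p = 0.000249). H2ac11 had 6.00, 6.23 and 6.48, a change of 0.95 ± 0.14 (limma adjusted p = 6.02e-05). H2bc12 had 5.98, 6.15 and 6.52, a change of 0.77 ± 0.14 (limma adjusted p = 0.000563). For both of these genes the AS2 arrays lay above every array of the other 3 groups.

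H2bc13 had a lowest, median and highest value of 11.53, 11.76 and 11.85, which put even the lowest AS2 array just above ApoE replicate 5. H2ac21 had 7.41, 7.58 and 7.83, again above all ApoE arrays, and H2ac22 had 10.95, 11.21 and 11.28, where ApoE replicate 5 reached into the AS2 range. Their changes were 0.48 ± 0.08, 0.60 ± 0.11 and 0.44 ± 0.09 (limma adjusted p = 0.000351, 0.000653 and 0.00138).

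H2ac4 and H2bc15 had larger changes and a wider spread over the ApoE arrays. H2ac4 (Hist1h2ab) read 7.52, 6.66, 8.58, 8.28 and 8.12 with ApoE plasma and 8.76 to 9.48 with AS2 plasma, a change of 1.28 ± 0.30 (limma adjusted p = 0.00632). H2bc15 read 5.33, 5.49, 6.81, 6.46 and 7.40 with ApoE plasma and had a median of 7.67 with AS2 plasma, where the lowest array lay below ApoE replicate 5, a change of 1.28 ± 0.37 (limma adjusted p = 0.0223). ApoE replicates 1 and 2 were the lowest in both genes, and the H2bc15 call was lost without ApoE replicate 1 or 2 (limma adjusted p = 0.074 and 0.0693). H2bc18 (Hist2h2bb) and H2ac20 (Hist2h2ac), of the Hist2 cluster, changed by 0.76 ± 0.20 and 0.86 ± 0.22, H2bc7 by 0.86 ± 0.20 and H2bc3 by 0.62 ± 0.13. The H2ac20 call was lost without both ApoE replicates 2 and 5 (limma adjusted p = 0.0523).

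Among the H4 genes, H4f16 (Hist4h4), which lies alone on chromosome 6, read 5.17, 5.32, 6.40, 6.04 and 6.40 with ApoE plasma, with replicates 1 and 2 again the lowest. Its lowest, median and highest AS2 values were 6.67, 6.93 and 7.17, and it changed by 1.06 ± 0.25 (limma adjusted p = 0.0054). H4c3 changed by 0.78 ± 0.19 in the same direction. H4c9 went the other way and fell by 0.71 ± 0.24, at the edge of the threshold (limma adjusted p = 0.0493), and was lost under 11 of 22 alternatives.

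The remaining calls were small or unsteady. H3c8, the only called H3 gene, changed by 0.20 ± 0.06 and H1f1 by 0.22 ± 0.05, both near the floor of the measurement, and neither passed after centring on the housekeeping genes (limma adjusted p = 0.349 and 0.206). H3c8 was also lost without ApoE replicate 1, AS2 replicate 2 or AS2 replicate 3 (limma adjusted p = 0.07, 0.0573 and 0.0583). H1f2 changed by 0.59 ± 0.19 (limma adjusted p = 0.045), and left out singly, ApoE replicates 1, 2 and 4 and AS2 replicates 2 to 6 each ended the call, with a limma adjusted p of up to 0.126.

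**Figure D2:**
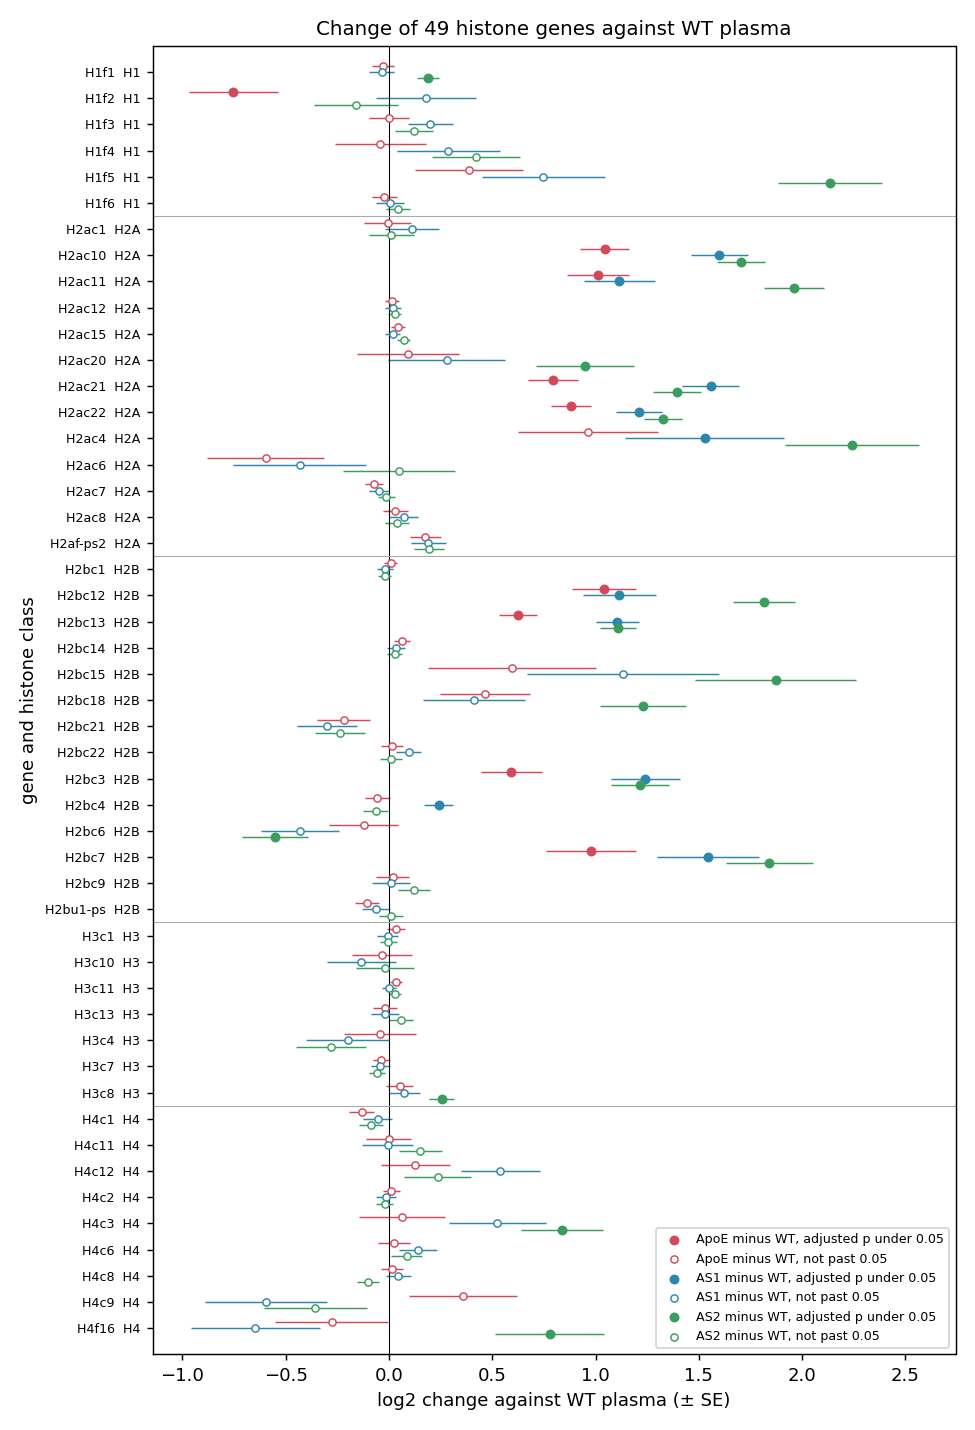
Log2 change of each of the 49 histone genes against WT plasma (horizontal axis, ± SE), grouped by histone class; colours give ApoE, AS1 and AS2 plasma and filled points have a limma adjusted p under 0.05. The filled points on the right belong mostly to H2A and H2B genes, with H1f5 at 2.14 for AS2, while 6 of the 7 H3 genes have no filled point. Among the H3 genes 6 had means at or below the 40th percentile of rows.

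Set against WT plasma, the higher members were 5 H2A and 5 H2B genes for AS1, and 6 H2A, 6 H2B, 2 H1, 2 H4 and 1 H3 gene for AS2; these comparisons share the WT arrays with each other and with ApoE against WT. With AS1 plasma 10 members were higher (20.4%, against 4.84% of all rows) and 0 lower (4.64% of all rows); limma at an unadjusted p under 0.05 gave 1 lower. With AS2 plasma 17 members were higher (34.7%, against 8.65%) and 1, H2bc6, was lower (2.04%, against 9.20%). H2ac4 showed the widest span, with 7.09, 5.98, 7.61 and 6.80 on the WT arrays, and was 4.73-fold higher with AS2 plasma (change 2.24 ± 0.33). H1f5 was 4.39-fold higher and H2ac11 3.90-fold higher. H2ac10 was 3.03-fold higher with AS1 plasma and 3.26-fold higher with AS2 plasma. All 10 neutrophil and granulocyte precursor markers and 4 of 6 mast cell and basophil markers were also higher in AS1 than in WT. Of 8 macrophage markers 1 was lower in AS1 and 5 were lower in AS2 than in WT. In AS2 against WT 1 of the 10 neutrophil and granulocyte precursor markers was higher and 4 were lower. The part of all these markers in the histone values was not tested.

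H2bc6 read 5.81, 5.30, 5.33 and 5.76 with WT plasma and 4.79 to 5.13 with AS2 plasma. It fell by 0.55 ± 0.16 (limma adjusted p = 0.0216), and leaving out WT replicate 1 or WT replicate 4 ended the call (limma adjusted p = 0.0892 and 0.081). H4f16 passed against WT only at the edge (change 0.78, limma adjusted p = 0.04999), and 13 of 20 alternatives ended that call. H2bc4 with AS1 plasma, at 0.24 against WT, was lost without any single 1 of AS1 replicates 1, 2 and 3 or WT replicates 1 and 3, and H2ac4 without AS1 replicate 1 (limma adjusted p up to 0.137 and 0.0652).

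The direct comparison of AS2 with AS1 plasma tested whether the stabilin groups differed. Here 6 members were higher with AS2 plasma (12.2%, against 11.5% of all rows) and 1 was lower (2.04%, against 10.6%), so the share of higher members was near that of all rows. Centring on the housekeeping genes, which moved the median of all rows by -0.44, gave 3 higher and 32 lower members. Of all 24705 rows, 610 were then higher and 20704 lower. As the values were deposited, the neutrophil and granulocyte precursor markers were all 10 lower in AS2 than in AS1, and their part in the histone values was not tested.

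Single members differed in how the stabilin groups compared. H1f5 was 1.39 ± 0.28 higher with AS2 than with AS1 plasma, without overlap (limma adjusted p = 0.00104). H4f16 was 1.43 ± 0.29 higher (limma adjusted p = 0.00124), with 6.29, 5.34 and 4.85 on the AS1 arrays. H2ac11 and H2bc12 were 0.85 ± 0.16 and 0.70 ± 0.16 higher, without overlap (limma adjusted p = 0.000642 and 0.00376), and H2bc12 changed by 0.26 after centring on the housekeeping genes (limma adjusted p = 0.133).

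H2bc18 read 7.08, 6.72 and 5.77 with AS1 plasma and 7.12 to 7.58 with AS2 plasma. Its difference of 0.82 ± 0.23 (limma adjusted p = 0.0139) rested on AS1 replicate 3, without which it was 0.44 (limma adjusted p = 0.155). H1f1, near the floor, was 0.23 higher, lost this without AS1 replicate 3 (limma adjusted p = 0.0601), and turned to -0.21 after centring on the housekeeping genes. H2bc4 was lower with AS2 plasma by a change of -0.31 ± 0.06 (limma adjusted p = 0.00183), and its AS2 arrays read 9.72 to 9.92.

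Other members did not pass between the stabilin groups as the values were deposited. The change of AS2 against AS1 was 0.10 for H2ac10 (95% interval -0.16 to 0.37), 0.12 for H2ac22 (-0.10 to 0.33), 0.00 for H2bc13 (-0.20 to 0.20), -0.02 for H2bc3 (-0.35 to 0.30) and -0.16 for H2ac21 (-0.43 to 0.11). A p that misses the threshold does not show that these values were equal, and the intervals do not bound the difference under another scaling. Centred on the housekeeping genes, the changes were -0.33 for H2ac10, -0.32 for H2ac22, -0.43 for H2bc13, -0.46 for H2bc3 and -0.60 for H2ac21, beside a shift of -0.44 in the median of all rows. With that centring 20704 of the 24705 rows passed as lower, so passing does not set a member apart from other rows. Of these members all but H2ac10 passed (limma adjusted p = 0.0517 for H2ac10, 0.0434 for H2ac22, 0.00555 for H2bc13, 0.00994 for H2bc3 and 0.000599 for H2ac21).

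**Figure D3:**
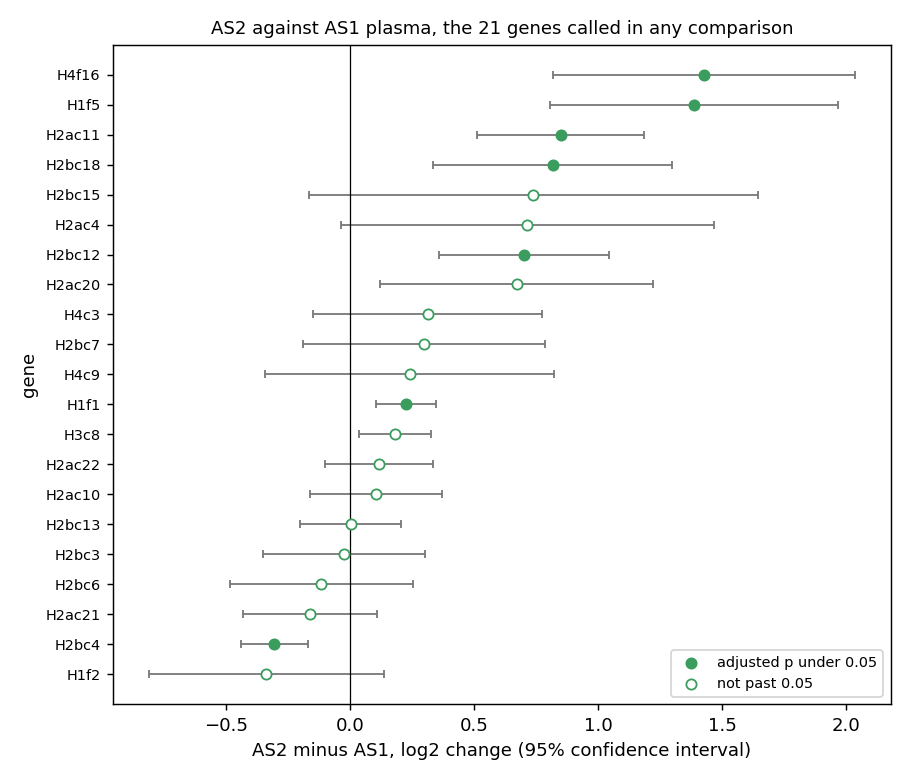
Log2 change of AS2 against AS1 plasma (horizontal axis, with 95% confidence interval) for the 21 histone genes that passed in at least 1 of the 6 comparisons; filled points have a limma adjusted p under 0.05. H4f16, at 1.43, and H1f5, at 1.39, are farthest to the right, H2bc13 lies at 0.00, and H2bc4, at -0.31, is the 1 filled point to the left of 0.

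**Figure D4:**
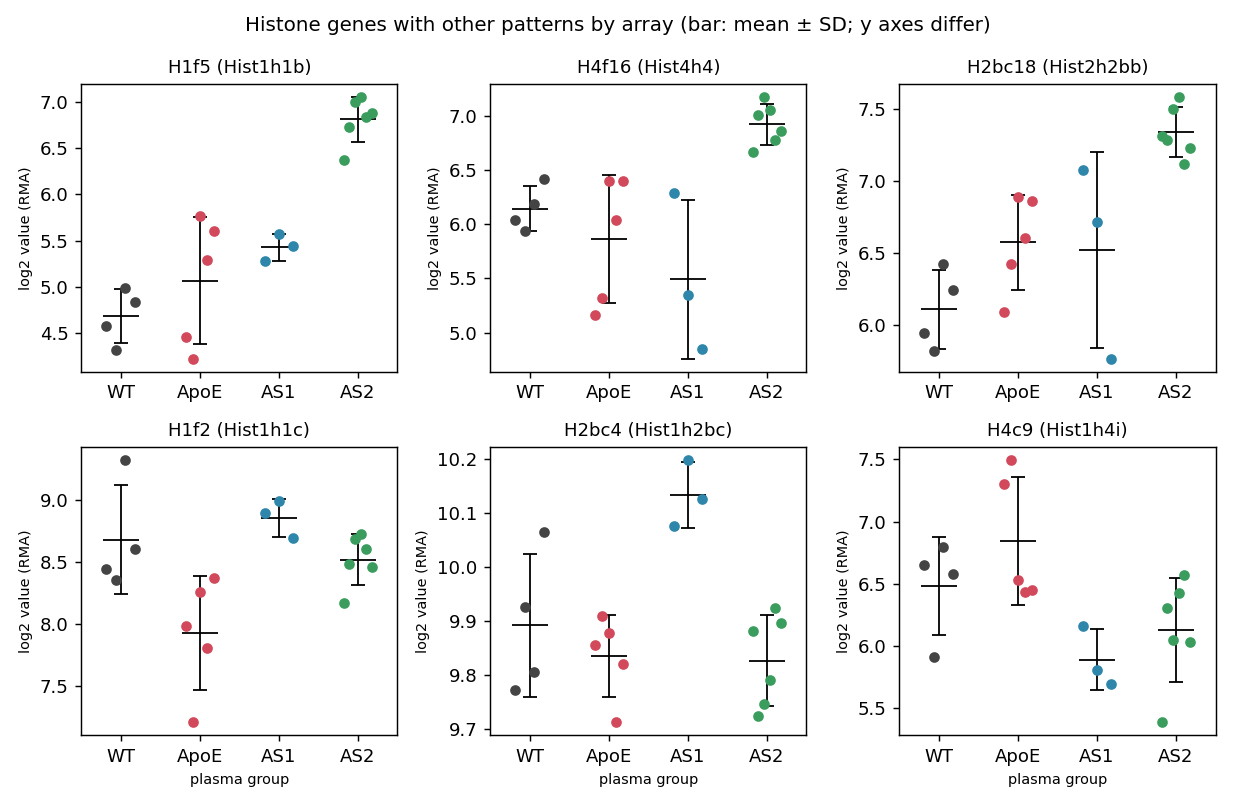
Log2 values (RMA) on every array for 6 histone genes with other patterns; points are arrays, bars are the group mean with SD, and the vertical axes differ and do not start at 0. All AS2 arrays of H1f5 and H4f16 lie above every other array, H2bc4 is highest on the 3 AS1 arrays, and ApoE replicates 1 and 2 are the highest ApoE arrays for H4c9 and the lowest for H1f5 and H4f16.

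The 3 members made mainly in the testis had 0 calls in the 6 comparisons in limma, and 0 at an unadjusted p under 0.05. These were H1f6 (Hist1h1t), H2ac1 (Hist1h2aa) and H2bc1 (Hist1h2ba), with ApoE against WT changes of -0.02, -0.01 and 0.01, and their AS2 against ApoE changes were 0.07, 0.02 and -0.03. Between 4.64% and 11.5% of all rows were called per direction in the 6 comparisons, so with 3 genes a count of 0 is near those shares. H1f6 and H2bc1, with means of 3.78 and 3.44, also lay below the 40th percentile. Counting H2ac1, 7 members above the 40th percentile passed in none of the 6 comparisons, with changes from -0.60 to 0.65: the others were H1f3, H1f4, H2ac6, H2bc21, H3c10 and H4c12. Of the 23 members at or below the 40th percentile, only H1f1 and H3c8 passed in any comparison, and the changes of the uncalled ones ranged from -0.28 to 0.19.

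The short stretch before a histone gene's start is where its transcription is controlled, so the 250 bases before the start are shown for the 6 genes with the smallest p over the groups and for H1f5. They are RefSeq sequences of build GRCm38.p6, 5′ to 3′ on the gene's own strand. Capitals mark a match, on either strand, to any of 4 motifs. The first is TATAAA, the core of the TATA box that positions the start of transcription. The second is CCAAT, the box bound by the factor NF-Y. The third is the octamer ATTTGCAT, known from H2B promoters, and the last is a site for E2F factors, searched as TTTGGCGC, TTTCCCGC, TTTCGCGC or TTTGCCGC. H2ac10 lies at chr13:23533625-23533874 (+), H2ac22 at chr13:21787249-21787498 (-), H2ac21 at chr3:96219635-96219884 (+), H2ac11 at chr13:22042950-22043199 (-), H2bc13 at chr13:21716184-21716433 (-), H2bc12 at chr13:22035571-22035820 (+) and H1f5 at chr13:21780626-21780875 (-).
H2ac10: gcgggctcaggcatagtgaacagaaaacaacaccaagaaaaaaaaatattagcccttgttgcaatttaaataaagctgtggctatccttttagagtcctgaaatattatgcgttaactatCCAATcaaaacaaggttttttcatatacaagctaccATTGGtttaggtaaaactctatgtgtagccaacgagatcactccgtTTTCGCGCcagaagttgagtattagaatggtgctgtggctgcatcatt
H2ac22: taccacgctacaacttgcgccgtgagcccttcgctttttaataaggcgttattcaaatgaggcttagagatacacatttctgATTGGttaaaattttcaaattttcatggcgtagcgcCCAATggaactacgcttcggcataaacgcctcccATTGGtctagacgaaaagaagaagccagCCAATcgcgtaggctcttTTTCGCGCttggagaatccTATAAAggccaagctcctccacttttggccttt
H2ac21: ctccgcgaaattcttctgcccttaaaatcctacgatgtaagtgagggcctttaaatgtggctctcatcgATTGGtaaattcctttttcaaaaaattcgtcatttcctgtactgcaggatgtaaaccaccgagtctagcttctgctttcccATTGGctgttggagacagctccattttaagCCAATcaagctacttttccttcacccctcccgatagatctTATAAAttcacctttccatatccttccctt
H2ac11: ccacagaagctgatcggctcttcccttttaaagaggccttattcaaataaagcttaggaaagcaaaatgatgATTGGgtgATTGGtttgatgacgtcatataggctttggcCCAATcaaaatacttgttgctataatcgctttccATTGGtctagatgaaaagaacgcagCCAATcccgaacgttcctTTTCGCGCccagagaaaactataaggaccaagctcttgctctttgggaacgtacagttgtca
H2bc13: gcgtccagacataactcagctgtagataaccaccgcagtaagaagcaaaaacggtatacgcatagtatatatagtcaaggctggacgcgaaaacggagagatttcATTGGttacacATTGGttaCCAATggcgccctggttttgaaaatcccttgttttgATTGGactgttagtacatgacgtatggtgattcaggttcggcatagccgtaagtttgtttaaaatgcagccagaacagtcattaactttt
H2bc12: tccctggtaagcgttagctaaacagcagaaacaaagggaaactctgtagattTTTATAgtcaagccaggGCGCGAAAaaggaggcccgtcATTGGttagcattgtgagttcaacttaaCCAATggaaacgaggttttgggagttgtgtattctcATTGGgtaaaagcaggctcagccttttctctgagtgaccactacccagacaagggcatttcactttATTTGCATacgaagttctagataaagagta
H1f5: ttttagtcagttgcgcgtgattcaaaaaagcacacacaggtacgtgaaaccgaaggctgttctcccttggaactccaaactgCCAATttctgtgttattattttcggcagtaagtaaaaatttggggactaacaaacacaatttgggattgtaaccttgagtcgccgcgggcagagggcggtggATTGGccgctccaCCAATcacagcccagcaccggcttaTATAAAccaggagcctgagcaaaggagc

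The letters of an E2F site occurred in the stretches of H2ac10, H2ac22, H2ac11 and H2bc12 and not in those of H2ac21, H2bc13 and H1f5; H2ac21 and H2bc13 passed in ApoE against WT like the first 4. In windows that reach 50 bases past the start, H2bc22, H2ac12, H2ac7 and H4c1, which passed in no comparison, held such letters too. The site of H2ac12 ran across the start and that of H2ac7 lay after it. H2bc22, H2ac12 and H2ac7 share these letters with the called genes H2ac22, H2bc12 and H2bc7. The means of H2bc22, H2ac12, H2ac7 and H4c1 were 3.73, 3.48, 3.50 and 3.69, near the floor, so changes in them would be compressed. Among the 7 stretches shown, the letters of the octamer occurred only in that of H2bc12, and CCAAT occurred in all 7. Counts over all members use windows of 250 bases before to 50 after the start, which were at hand for 43 of the 49 members. TATAAA was found in 28 of the 43 members (65.1%, against 13.6% of all 32851 windows of this length) and CCAAT in 36 (83.7%, against 37.4%). CCAAT was in every H1, H2A, H2B and H3 window, and in 2 of 9 H4 windows.

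The octamer was found in 11 of 43 members (25.6%, against 1.74% of all windows), 6 of 12 H2A and 5 of 11 H2B windows, and in no window of the other classes. An E2F site was found in 9 of 43 (20.9%, against 2.27%), 5 of H2A, 3 of H2B and 1 of H4. Among the 17 members called higher in AS2 against WT, 5 held an E2F site and 5 the octamer, against 4 and 6 of the 26 other members with a window. The 2 sets differ in class, with 12 H2A and H2B genes among the 17 and 11 among the 26. Within H2A and H2B, an E2F site was in 5 of the 12 and 3 of the 11, and the octamer in 5 and 6. These are matches of letters, and were compared without a test. Windows of genes that start close together on opposite strands overlap, so a match can be counted for both genes. The E2F site and the octamer of H2ac12 and H2bc12 are such shared letters, with H2bc12 among the called members and H2ac12 among the others.

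Many H2A and H2B genes stand back to back and share the stretch between their starts. Among the genes with a start in the promoter table, 10 such pairs lie with 164 to 281 bases between starts, and 5 pairs had rows for both genes. Pairs with a gene that has no entry there, such as H2bc4 and H2bc21, were not counted. In AS2 against WT no pair had both genes called, 4 pairs had 1 gene called and 1 had none. H2bc15 changed by 1.87 and its partner H2ac15 by 0.07, H2bc12 by 1.82 and H2ac12 by 0.03, H2bc7 by 1.84 and H2ac7 by -0.01, and H2ac22 by 1.33 and H2bc22 by 0.01. Each uncalled partner had a mean below the 40th percentile of rows (3.49 for H2ac15, 3.48 for H2ac12, 3.50 for H2ac7 and 3.73 for H2bc22), so a change in it would be compressed.

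**Figure D5:**
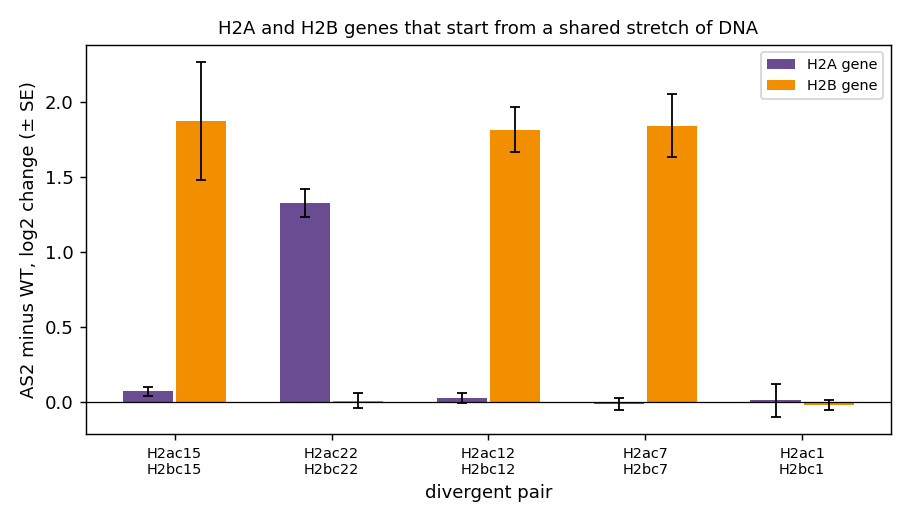
Log2 change of AS2 against WT plasma (vertical axis; bars start at 0, error bars are SE) for 5 pairs of H2A and H2B genes that start from a shared stretch of DNA. In 4 pairs 1 gene changed by 1.33 to 1.87 and its partner by -0.01 to 0.07, and in the pair of testis genes H2ac1 and H2bc1 neither passed.

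Other genes of the cell cycle and of histone supply were counted from fixed lists. Of 27 measured S phase and replication genes, 19 were higher in ApoE against WT, 3 were higher and 1 lower in AS1 against ApoE, and all 27 were higher in AS2 against ApoE. Their median changes were 0.49, -0.01 and 0.84, against medians of -0.00, 0.00 and -0.00 over all rows, of which 8.54%, 7.74% and 7.59% were higher. Rrm2, a subunit of the ribonucleotide reductase that makes DNA precursors, changed by 1.47 in ApoE against WT. Mcm5, a part of the helicase that opens DNA for copying, changed by 1.03 in AS2 against ApoE, and Mcm3 of the same helicase by -0.42 in AS1 against ApoE. In AS2 against AS1, 25 of the 27 were higher, with a median of 0.74.

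All 21 measured G2 and M phase genes were higher in ApoE against WT, with a median of 1.86, and again in AS2 against ApoE, with a median of 0.95. In AS1 against ApoE 7 were higher, with a median of 0.33. Mki67, the marker of cycling cells, changed by 2.13 in ApoE against WT, and Aurkb and Plk1, kinases of mitosis, both changed by 0.58 in AS1 against ApoE. Kif20a and Birc5, which act in cell division, changed by 1.12 and 1.13 in AS2 against ApoE.

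Factors that transcribe histone genes or process their transcripts were counted next. Of 15 measured, 0 were higher and 1, Cramp1l at -0.30, was lower in ApoE against WT in limma (0 and 2 at an unadjusted p under 0.05); the shares of all rows were 8.54% and 8.36%. In AS1 against ApoE 1 was higher and 2 were lower (7.74% and 8.80% of all rows), in AS2 against ApoE 3 were higher and 0 lower in limma (7.59% and 8.02%; 4 and 1 at an unadjusted p under 0.05), and in AS2 against AS1 8 were higher and 2 lower (11.5% and 10.6%). The median changes over the list were 0.03, -0.12, 0.11 and 0.20 in the order of these comparisons. Slbp, which binds the stem-loop of histone transcripts, changed by 0.37 ± 0.10 in AS2 against ApoE (limma adjusted p = 0.0132), and Eri1, a nuclease that acts on the stem-loop, by 0.50. Cpsf2, of the complex that cleaves the transcript's end, changed by -0.40 in AS1 against ApoE.

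Of 16 measured histone chaperones, which carry new histones to DNA, 7 were higher and 1 lower in ApoE against WT, 2 higher and 3 lower in AS1 against ApoE, and 11 higher and 1 lower in AS2 against ApoE. The median changes were 0.24, -0.10 and 0.35, and the shares of all rows higher and lower were 8.54% and 8.36%, 7.74% and 8.80%, and 7.59% and 8.02%, so with 16 genes the counts in AS1 against ApoE were not far from those of all rows. Nasp changed by 0.41 in ApoE against WT and by -0.55 in AS1 against ApoE. Asf1b and Chaf1a, which deliver H3 and H4 to new DNA, changed by 1.22 and 0.74 in AS2 against ApoE. Of 10 measured histone variants outside the clusters, 2 were higher and 1 lower, 4 higher, and 5 higher in the same order of comparisons, to be set beside the same shares of all rows, with medians of -0.01, 0.14 and 0.16. H2ax, a variant known for marking DNA breaks, changed by 0.92 in ApoE against WT and 1.09 in AS2 against ApoE, and Cenpa, the variant of centromeres, by 0.50, 0.40 and 0.33.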

How the data were processed

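The deposited table holds log2 expression values that the authors made with RMA, per the submitters' processing notes. RMA's version, the probe set definition and the priming of the RNA are not stated in any source used here. Clustered histone transcripts usually lack a poly(A) tail, so the priming bears on which of them the signal measures. Whether the changes reflect the stem-loop transcripts or polyadenylated ones was not tested. Per the labels, RNA came from a microRNA isolation kit and was labelled as biotinylated cRNA by the standard Affymetrix protocol. The table has 25428 rows and 18 arrays, and 723 rows without a symbol were left out. When sorted, 17 arrays held identical values and ApoE replicate 1 departed from these by 0.0019 or less, for a reason the labels do not give. Equal distributions hide any change in total RNA per cell. The number of arrays limits the precision.

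From these values limma 3.58.1 in R 4.3.3 fitted 4 group means (14 residual degrees of freedom, two-sided tests, Benjamini-Hochberg adjustment). On simulated data the fit of ApoE against WT over 24705 rows recovered 85 of 100 rows changed by 0.5 log2 units, and 50 of 50 changed by 1. The simulation added the full change to randomly chosen rows with independent noise. It therefore does not give the recovery for members whose changes are compressed near the floor or whose spread is wide. H2ac4, at 0.96 ± 0.34, did not pass in ApoE against WT (limma adjusted p = 0.062). Members and lists were chosen with earlier results of these data known. The text names, per main comparison, up to 8 called members per direction by smallest p, the smallest-p member of each class, the 6 members with the smallest F test p, all testis and polyadenylated members, and up to 3 called genes per other list. The other members named, among them H1f1, H2ac4, H2ac20, H2bc6, H2bc15, H2bc18 and H4c3, were chosen after their values were seen. Alternatives were all rows, a filter on dim rows, 1 row per gene, renewed quantile and cyclic loess normalization, housekeeping centring, array weights, a trended robust variance, the 2 groups alone, the replicate block and each array left out. Leaving out both ApoE replicates 2 and 5 was chosen after seeing the data.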

Additional observations from a re-analysis of the deposited data

Results flagged for a closer look

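Among 20 named members in the groups of 4 or more arrays, 60 combinations of gene and group were checked for a single array far from the rest, and 3 stood out, where chance gives about 1 in 20. H2bc3 read 5.25 on WT replicate 2, against 5.58 to 5.62 on the other WT arrays. H3c8 read 3.58 on WT replicate 2, against 3.43 to 3.45, and 3.43 on ApoE replicate 1, against 3.54 to 3.58. The H3c8 values lie close to the floor of the table, at 3.34.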

How the results depend on the processing

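Over 6 comparisons, 53 of 71 calls of members passed under every alternative, 18 were lost under at least 1, and 1 changed sign (H1f1, AS2 against AS1). Of 969 alternative values for named members in the main comparisons, 918 kept their direction and side of the threshold, 44 no longer passed, 4 newly passed and 3 reversed. Centring on 9 housekeeping genes moved the median of all rows by -0.14 (ApoE against WT), 0.41 (AS1 against ApoE), -0.03 (AS2 against ApoE), 0.26 (AS1 against WT), -0.17 (AS2 against WT) and -0.44 (AS2 against AS1); 5 of the 9 genes were themselves lower in AS1 than in ApoE. Under this centring 2 members were lower in ApoE against WT (3216 of the 24705 rows) and 2 in AS2 against WT (4756 rows). In AS1 against ApoE 42 were higher and 0 lower (20469 and 440 rows), and in AS1 against WT 30 were higher (11098 rows). In AS2 against AS1 3 were higher and 32 lower (610 and 20704 rows). The reversed values, all AS1 against ApoE, were H3c11 0.38, H2bc1 0.38 and H2bc21 0.33. With the 2 groups alone, the lower members numbered 0 in each of the 3 main comparisons and 2 in AS2 against AS1. In AS2 against ApoE the lower members numbered 0 with cyclic loess, 2 with the filter on dim rows, which tests fewer genes, and 2 with a trended robust variance; array weights gave 2 in AS2 against AS1. Without both ApoE replicates 2 and 5, 0 were lower with AS1 or with AS2 plasma against ApoE. The cause of these differences in counts was not tested. Leaving out single arrays gave 8 to 9 higher and 0 to 1 lower members in ApoE against WT, 6 to 7 and 0 to 1 in AS1 against ApoE, 15 to 19 and 0 to 2 in AS2 against ApoE, 8 to 11 and 0 to 2 in AS1 against WT, 16 to 17 and 0 to 1 in AS2 against WT, and 4 to 8 and 1 to 1 in AS2 against AS1.

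Deviations from the group means were weakly correlated between same-numbered arrays (22 pairs, correlation -0.207 to 0.133, 4 over 0.1). Weak correlations cannot show whether the numbers mark a shared culture, donor or batch, and differently numbered arrays were not compared. With the replicate block, higher members numbered 9, 9, 17, 10, 15 and 5 in the order of comparisons above, and 0 members were lower in AS2 against WT and, with AS1 or AS2 plasma, against ApoE.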
